A study of Mus musculus with 6 samples.

Results

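Transcript levels of 10 genes of the Hippo pathway and its outputs were read in 6 RNA-seq libraries: the transcriptional co-activators Yap1 and Wwtr1 (which encodes TAZ), the feedback genes Lats2 and Amotl2, the target gene Ankrd1, and the CCN genes Cyr61, Ctgf, Nov, Wisp1 and Wisp2, listed in the annotation as Ccn1 to Ccn5. They were chosen by name, as listed here, with no threshold on their values but with earlier results of these data known. All 10 of 10 members were found among the 54752 rows of the deposited count table, and all 10 passed the filter on low counts that left 17128 genes to test. There were 3 libraries of shARF mouse embryonic fibroblasts, in which a lentivirus delivered a short hairpin against p19ARF, and 3 of shNT fibroblasts with a negative control hairpin. All 6 library titles also carry the label neo, which the titles do not explain. Both groups are given as one p53-deleted fibroblast line, so the loss of p53 is shared, although the control libraries carry the genotype label WT. Cells were grown in DMEM with serum. The titles call the replicates biol rep, for biological replicates. Neither the age of the embryos, the strain, nor whether replicates came from separate infections is stated. The p-values therefore describe the spread of these libraries, which may not include that between separate infections.

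In the Hippo pathway a kinase cascade that ends in LATS1 and LATS2 phosphorylates YAP and TAZ and keeps them out of the nucleus. When the cascade is low, as in spread fibroblasts on stiff substrate, YAP and TAZ enter the nucleus, bind TEAD factors and switch on genes such as Ctgf, Cyr61 and Ankrd1. LATS2 and AMOTL2 are themselves targets and restrain the co-activators in turn. CCN proteins are secreted matricellular proteins, which bind integrins and growth factors in the matrix rather than building it, and their genes are active in fibroblasts, cartilage and healing wounds. These outputs are transcript levels, and neither the location nor the phosphorylation of YAP or TAZ was measured.

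Promoter sequences from RefSeq (GRCm38.p6) were found for 6 of the 10 genes, namely Yap1, Wwtr1, Lats2, Amotl2, Ankrd1 and Cyr61, and not for Ctgf, Nov, Wisp1 and Wisp2. The 250 bases before each start site were searched on both strands for the core of the TEAD motif, spelled CATTCC or GGAATG. The promoters of 3 target genes are shown because their transcripts were all higher in shARF by similar factors, with the motif in capitals. The Amotl2 window is chr9:102717554-102717803 on the plus strand, the Ankrd1 window chr19:36119845-36120094 on the minus strand, and the Cyr61 window chr3:145649986-145650235 on the minus strand. Each sequence reads 5′ to 3′ in the direction of transcription and ends at the base before the start site.
Amotl2: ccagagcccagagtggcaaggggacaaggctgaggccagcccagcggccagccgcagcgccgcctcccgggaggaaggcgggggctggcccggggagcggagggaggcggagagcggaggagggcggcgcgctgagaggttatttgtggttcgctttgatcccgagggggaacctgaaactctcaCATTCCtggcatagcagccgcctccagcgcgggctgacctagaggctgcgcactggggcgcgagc
Ankrd1: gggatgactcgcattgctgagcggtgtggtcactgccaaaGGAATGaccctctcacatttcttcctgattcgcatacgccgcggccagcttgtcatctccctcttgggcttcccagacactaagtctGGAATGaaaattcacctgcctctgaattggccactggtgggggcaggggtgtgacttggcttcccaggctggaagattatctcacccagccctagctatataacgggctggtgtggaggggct
Cyr61: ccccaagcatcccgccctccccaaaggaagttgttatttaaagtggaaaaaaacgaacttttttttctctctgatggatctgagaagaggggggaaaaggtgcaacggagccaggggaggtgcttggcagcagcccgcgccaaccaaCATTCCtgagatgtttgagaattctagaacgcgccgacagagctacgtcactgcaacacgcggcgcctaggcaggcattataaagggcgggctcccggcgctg
The motif began 65 bases before the start site in Amotl2 and 103 bases before it in Cyr61. Ankrd1 held it at 2 places, 210 and 123 bases upstream. Single matches also lay 141 bases upstream of Yap1 and 136 bases upstream of the first of the 2 listed Wwtr1 starts, and neither listed Lats2 window held one. In all, 6 of the 8 windows held the core, against 12.6% of all 32851 windows of this length. The Wwtr1 pair of windows share 1 match. By gene, 5 of the 6 held it, and no share of all genes was computed to set beside that. The list includes known targets of YAP and TAZ, so these shares are not a test of enrichment. Windows of the 6 genes held no AP-1 motif (TGACTCA or TGAGTCA, 4.46% of all windows) and no CArG box (1.47%). These matches are letters in a window and do not show that a factor was bound.

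The hairpin's target was checked first. Cdkn2a, the locus of p19ARF and p16INK4a, was at 95.6, 103 and 107 CPM in shARF (counts scaled by TMM factors to a library of 1000000), against 231, 218 and 223 CPM in shNT. The libraries did not overlap, and the shARF mean was 45.5% of that of shNT (log2 ratio of -1.14 ± 0.05 SE, adjusted p = 2.52e-06 by edgeR). Permuting the 6 libraries exactly, two-sided, gave 0.1 as the p, and no smaller one is possible with 3 a group. Libraries held 45226639 to 46305826 counts in shARF and 40261944 to 47023082 in shNT. The 10 fibroblast markers summed to 21237 to 21499.8 CPM in shARF and 18594 to 19984 CPM in shNT. Of these markers, 5 were higher, 2 lower and 3 not called (median log2 fold change 0.09), against 28.8% higher and 27.7% lower over all genes tested. The higher ones were Fap (log2 fold change 1.11), Col1a1 (0.39), Thy1 (0.37), Col1a2 (0.12) and Vim (0.11), and the lower ones Pdgfra (-2.46) and Dcn (-2.12). Fap averaged 1.43 CPM in shARF and 0.659 CPM in shNT, and Lum 1.39 CPM in shARF and 1.79 CPM in shNT, so both were scarce. Xist averaged 45.7 ± 7.49 CPM in shARF and 387 ± 26.5 CPM in shNT (SD, n = 3 each). The Y-linked Kdm5d averaged 19.5 ± 0.623 CPM in shARF and 0.782 ± 0.216 CPM in shNT. The Y-linked Ddx3y, Eif2s3y and Uty were also higher in shARF, at means of 85.3, 38.3 and 21.7 CPM. They were nonetheless expressed in shNT, at means of 24.4, 12.8 and 9.61 CPM. The groups thus also differed in transcripts that mark the sex of the cells. What this difference contributes to the values below was not tested. In bulk RNA, fewer cells of a type and less RNA per cell cannot be told apart.

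Of the 10 members, 9 were higher in shARF and 1, Wisp2, was lower, each with an adjusted p under 0.05 in edgeR's quasi-likelihood test adjusted over all 17128 genes. For comparison, 28.8% of all genes tested were called higher and 27.7% lower (4930 and 4737 genes; 4023 and 5874 when scaled by library sizes alone). The median log2 fold change of the members was 0.48, against -0.01 over all genes tested. For all 10 genes the 3 shARF libraries lay on one side of the 3 shNT libraries; the same held for 32.6% of all genes toward higher and 32.0% toward lower. Most changes were modest: Wisp1 was the 1 member called with a change of 2-fold or more, as were 14.4% of all genes tested.

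**Figure D1:**
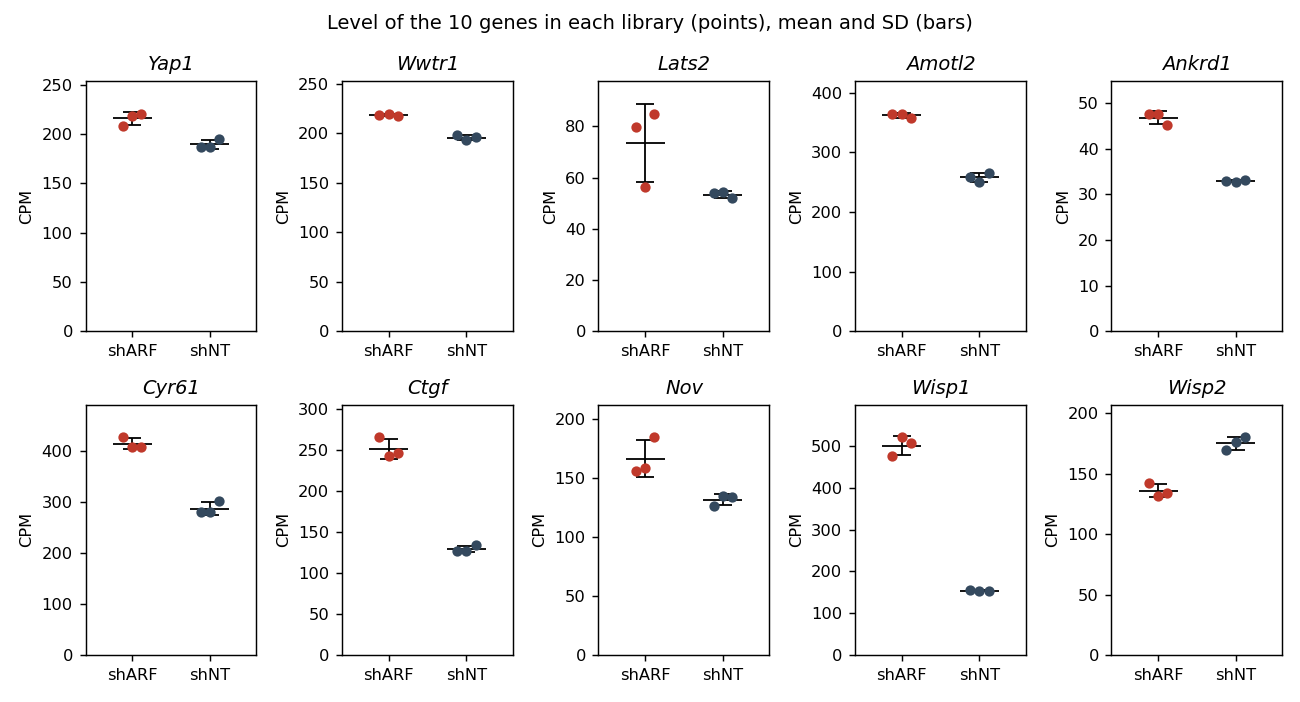
Level of each of the 10 genes in CPM (y axes, each starting at 0) in the 3 shARF libraries (red) and the 3 shNT libraries (dark blue), with the mean (line) and the SD (bars). The shARF points lie above the shNT points in 9 panels and below them for Wisp2, and 1 shARF point of Lats2 lies close to shNT.

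The co-activators rose slightly and together. Yap1 (ENSMUSG00000053110.13, GRCm38 chromosome 9, 7931999 to 8004596, minus strand) was at 208, 218 and 221 CPM in shARF, against 187, 187 and 195 CPM in shNT. Every shARF library was above every shNT library, by a small margin (log2 fold change 0.19, SE 0.03, adjusted p = 0.00226, edgeR). Wwtr1 (ENSMUSG00000027803.14, chromosome 3, 57455649 to 57575910, minus strand) was at 218, 220 and 217 CPM in shARF, against 198, 193 and 196 CPM in shNT. The SD of Wwtr1 in shARF, 0.569% of the mean, was below the 1.01% that counting error alone gives, so this small SD does not measure the precision of the mean. The same limit held in shNT for Ankrd1 (0.634% against 2.59%) and Wisp1 (0.629% against 1.2%), whose values are given below. The log2 fold change of Wwtr1 was 0.16 (SE 0.02, adjusted p = 6.35e-04). Larger absolute changes than these were found for 69.6% (Yap1) and 73.4% (Wwtr1) of all genes tested. Both values depended on the scaling. With library sizes alone the log2 fold change was 0.096 for Yap1 (adjusted p = 0.0308, edgeR) and 0.0695 for Wwtr1 (adjusted p = 0.028). Per kb of exon, Wwtr1 stood at 1.96 ± 0.0633 times the level of Yap1 in shARF and 2.00 ± 0.0518 times in shNT (SD, n = 3 each), and the ratios of the groups overlapped.

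The feedback gene Amotl2 and the target gene Ankrd1 rose by similar factors. Amotl2, which encodes an angiomotin-like protein that holds YAP at junctions (ENSMUSG00000032531.15, chromosome 9, 102716672 to 102733418, plus strand), was at 365, 364 and 358 CPM in shARF, against 258, 251 and 266 CPM in shNT. The groups were well apart and tight, and the fold was 1.40 (log2 fold change 0.49, SE 0.03, adjusted p = 8.67e-06, edgeR). Ankrd1, which encodes an ankyrin-repeat cofactor best known from heart muscle (ENSMUSG00000024803.8, chromosome 19, 36111961 to 36120099, minus strand), was at 47.6, 47.5 and 45.3 CPM in shARF, against 33.0, 32.7 and 33.1 CPM in shNT. Its fold of 1.42 was close to that of Amotl2 (log2 fold change 0.51, SE 0.04, adjusted p = 4.5e-05). Of 7 striated muscle markers, Myh6, Actn2, Myod1, Myog and Ckm had no count in any library. Des had 12, 16 and 24 counts in shARF, against 4, 4 and 4 in shNT, and was called higher (log2 fold change 2.11, adjusted p = 0.00372, edgeR). Tnnt2 had 42 to 61 counts in shARF and 21 to 53 in shNT and was not called. The part of these markers in the value of Ankrd1 was not tested.

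Lats2, the kinase gene of the loop (ENSMUSG00000021959.16, chromosome 14, 57689662 to 57758388, minus strand), gave the most scattered values. Lats2 was at 79.7, 56.2 and 85.0 CPM in shARF, against 54.1, 54.3 and 51.9 CPM in shNT. The second shARF library stood just above the control level and the other two well above it, so the SD in shARF was 20.8% of the mean. shARF was higher (log2 fold change 0.46, SE 0.15, adjusted p = 0.0309, edgeR), and leaving out 1 library at a time ended the call for 5 of the 6 libraries, all but shARF replicate 2, with adjusted p up to 0.092. Counts in shARF libraries were also assigned to Gm49361, a protein-coding model on the same strand (chromosome 14, 57642077 to 57746103) that shares 2955 exon bases with Lats2. Gm49361 held 75, 1077 and 0 counts in shARF replicates 1, 2 and 3, and 0 in each shNT library. With both models added, the counts were 3646, 3540 and 3799 in shARF, against 2489, 2644 and 2135 in shNT. On that sum, chosen after seeing the data, the level was 82.4 ± 2.29 CPM in shARF and 53.4 ± 1.34 CPM in shNT (SD, n = 3 each), with a log2 fold change of 0.63 (SE 0.04, adjusted p = 1.43e-05).

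**Figure D2:**
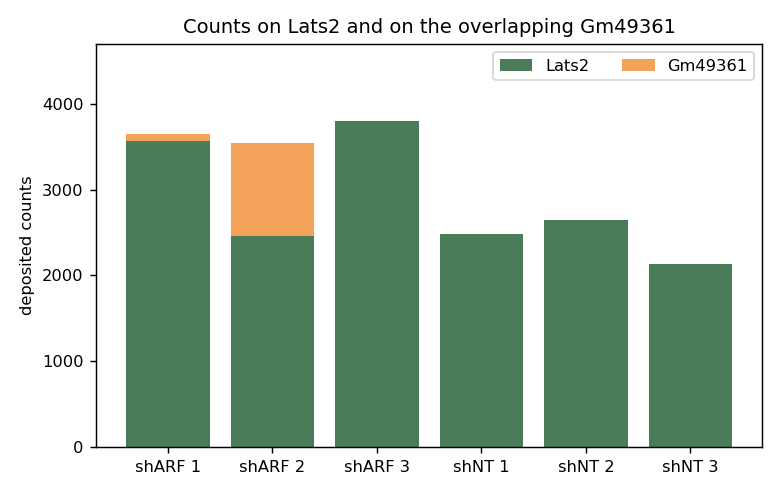
Deposited counts (y axis) on Lats2 (green) and on the overlapping model Gm49361 (orange, stacked) in each library. The low Lats2 bar of shARF replicate 2 carries 1077 counts on Gm49361, and the stacked bars of shARF reach 3540 to 3799 counts, against 2135 to 2644 in shNT.

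The CCN genes showed both the largest rise and the single fall. Wisp1, which encodes a CCN protein induced by Wnt signalling (ENSMUSG00000005124.10, chromosome 15, 66891320 to 66923201, plus strand), was at 475, 521 and 507 CPM in shARF, against 155, 154 and 153 CPM in shNT. No shARF library came near the control level, and the fold was 3.26 (log2 fold change 1.70, SE 0.04, adjusted p = 2.5e-07, edgeR). A larger absolute change was found for 7.41% of all genes tested. Ctgf, which encodes a matrix factor that acts with TGF-beta in fibrosis (ENSMUSG00000019997.11, chromosome 10, 24595442 to 24598683, plus strand), was at 266, 243 and 246 CPM in shARF, against 127, 127 and 134 CPM in shNT. It rose 1.95-fold (log2 fold change 0.96, SE 0.04, adjusted p = 3.4e-06). An antisense model, Gm15270, shares 665 exon bases with Ctgf and held 11 to 29 counts per library; whether counting used strand was not given in the sources used here.

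Cyr61, an immediate early gene for an integrin-binding matrix protein (ENSMUSG00000028195.4, chromosome 3, 145646976 to 145649981, minus strand), was at 426, 407 and 408 CPM in shARF, against 280, 279 and 301 CPM in shNT. The groups did not overlap and the fold was 1.44 (log2 fold change 0.53, SE 0.04, adjusted p = 2.8e-05, edgeR), near those of Amotl2 and Ankrd1. Nov, known in mouse and human for opposing CTGF in several settings (ENSMUSG00000037362.8, chromosome 15, 54745702 to 54754039, plus strand), was at 156, 158 and 185 CPM in shARF, against 126, 135 and 134 CPM in shNT. The third shARF library was the highest, and all 3 lay above shNT (log2 fold change 0.34, SE 0.07, adjusted p = 0.00477). Wisp2, whose protein lacks the C-terminal cystine knot domain of the other CCN proteins (ENSMUSG00000027656.7, chromosome 2, 163820861 to 163833146, plus strand), was at 142, 132 and 134 CPM in shARF, against 170, 176 and 180 CPM in shNT. It was lower in every shARF library than in any control library (log2 fold change -0.37, SE 0.04, adjusted p = 2.02e-04). The remaining family gene, Wisp3 (Ccn6), had 0 counts in all 6 libraries. A count of 0 in a single library does not exclude an expected count of up to about 3 there. Having 0 in all 6 sets a tighter bound, but does not show that the gene was silent.

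**Figure D3:**
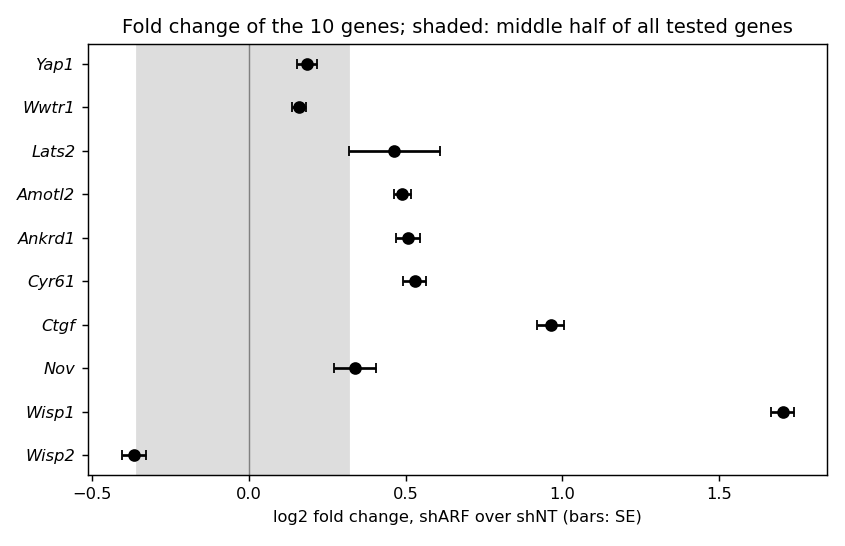
Log2 fold change of shARF over shNT (x axis) for the 10 genes, with the SE of the fit (bars); the shaded band runs from the lower to the upper quartile of all genes tested (-0.36 to 0.32). Yap1 and Wwtr1 lie within the band, Wisp1 lies farthest from 0 at 1.70, and Wisp2 lies at -0.37.

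Set on a scale of CPM per kb of exon, so that levels of different genes can be compared, Cyr61 was the most abundant member in both groups, at 205 ± 5.31 in shARF and 142 ± 6.19 in shNT (SD, n = 3 each). In shARF it was followed by Wisp1 (90.0 ± 4.21) and Ctgf (88.0 ± 4.28), whose libraries overlapped, then Wisp2 (70.6 ± 2.80). Nov (58.0 ± 5.48) and Amotl2 (57.6 ± 0.615) came next and also overlapped. In shNT the order was different: Wisp2 came second (91.1 ± 2.78), and Nov (45.9 ± 1.62) and Ctgf (45.2 ± 1.37) overlapped behind it. Wisp1 was seventh in shNT, at 27.6 ± 0.174, below Amotl2 (41.0 ± 1.20) and Wwtr1 (40.9 ± 0.561), which overlapped. Yap1, Ankrd1 and Lats2 closed the order in both groups, at 23.3, 16.2 and 10.6 in shARF and at 20.5, 11.4 and 7.66 in shNT.

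The sum of the 5 CCN genes on this scale was 518, 504 and 513 in shARF, against 343, 349 and 364 in shNT. Wisp1 and Ctgf held larger shares of it in shARF, and Wisp2 and Nov smaller ones. Wisp1 made up 17.6 ± 1.04% of the sum in shARF and 7.86 ± 0.285% in shNT (SD over libraries), and Ctgf 17.2 ± 0.649% in shARF and 12.8 ± 0.129% in shNT. Wisp2 made up 13.8 ± 0.395% in shARF and 25.9 ± 0.315% in shNT. Nov, although its level was higher in shARF, made up 10.5, 11.0 and 12.5% there, against 12.8, 13.5 and 12.8% in shNT, without overlap. The share of Cyr61 was 40.1 ± 0.706% in shARF and 40.4 ± 0.686% in shNT, a difference smaller than the spread between replicates. The level of Wisp1 was thus 1.16, 1.37 and 1.31 times that of Wisp2 in the shARF libraries, against 0.315, 0.302 and 0.293 times in the shNT libraries.

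**Figure D4:**
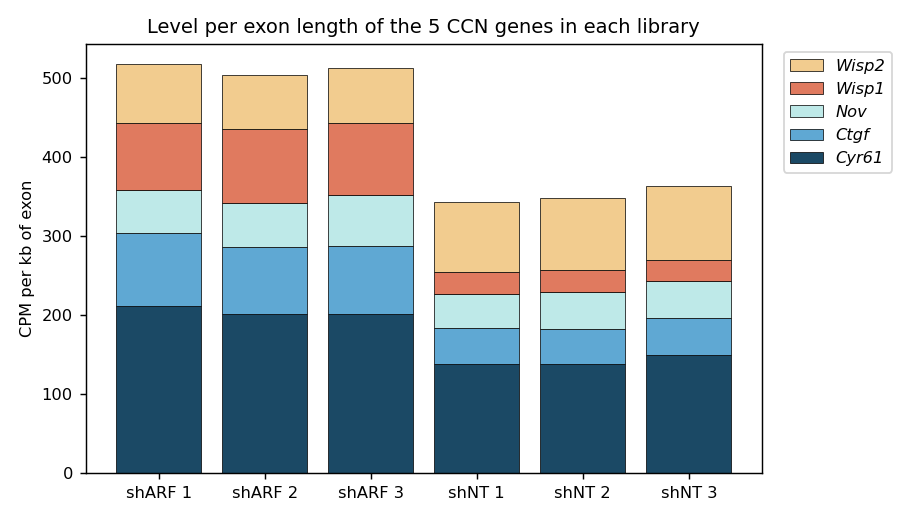
Level of the 5 CCN genes in CPM per kb of exon (y axis), stacked for each of the 3 shARF and 3 shNT libraries. The stacks reach 504 to 518 in shARF and 343 to 364 in shNT, with a wider Wisp1 segment and a narrower Wisp2 segment in shARF.

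The rest of the pathway was read from lists chosen by function, also with earlier results of these data known. Their counts are set beside the 28.8% of all genes tested that were called higher and the 27.7% called lower. Of the 6 genes of the kinase core, 2 were higher, 1 was lower and 3 were not called, close to those shares. Lats1, the partner kinase of Lats2, rose to 225 ± 2.21 CPM in shARF, against 138 ± 7.07 CPM in shNT (log2 fold change 0.70, adjusted p = 1.02e-05, edgeR). Sav1, the scaffold of the cascade, was lower (-0.13, adjusted p = 0.0106), and Stk4, which encodes the upstream kinase MST1, was marginally higher (0.09, adjusted p = 0.0386). That last call was lost in 10 of the 14 alternatives, with adjusted p between 0.0501 and 0.92 in those. Among 22 upstream regulators, 10 were higher, 5 lower and 7 not called, against 28.8% higher and 27.7% lower over all genes; scaled by library sizes alone, 8 were higher and 8 lower. Amot, which encodes the founding angiomotin, fell to 219 ± 4.52 CPM in shARF, against 369 ± 8.96 CPM in shNT (-0.75, adjusted p = 1.6e-06), opposite in direction to its relative Amotl2. Fat4, an atypical cadherin, was also lower (-0.49), and Ajuba, a LIM protein that inhibits LATS kinases, was higher (0.93, adjusted p = 3.92e-06).

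The TEAD genes, whose products are the DNA-binding partners of YAP and TAZ, were read with the VGLL genes. Of these 8 genes, 6 were tested, with 1 higher, 2 lower and 3 not called, near the 28.8% higher and 27.7% lower of all genes; Vgll1 had no counts and Vgll2 too few. Tead2 was at 64.1 ± 3.61 CPM in shARF and 86.9 ± 4.69 CPM in shNT (log2 fold change -0.44, adjusted p = 6.3e-04, edgeR), and Tead3 at 44.9 ± 1.52 CPM in shARF and 55.3 ± 1.25 CPM in shNT (-0.30, adjusted p = 8.14e-04). Tead4 was higher, at 19.1 ± 0.494 CPM in shARF and 15.0 ± 1.71 CPM in shNT (0.35, adjusted p = 0.0127). Tead1, named after its values were seen, was at 60.7, 58.9 and 57.4 CPM in shARF, against 77.8, 72.6 and 368 CPM in shNT. The third control library stood far above all others, and the difference did not pass the test (-1.55, adjusted p = 0.0761). Without that library it was -0.36 with an adjusted p of 0.00146.

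Other genes known as YAP and TAZ targets mostly rose: 11 of 17 were higher, 2 lower and 4 not called, against 28.8% higher and 27.7% lower over all genes. Their median log2 fold change was 0.23, against -0.01 over all genes tested. Ccdc80, a matrix protein gene, was at 575 ± 6.44 CPM in shARF and 331 ± 7.98 CPM in shNT (0.80, adjusted p = 7.08e-07, edgeR). Tgfb2, a TGF-beta ligand, was at 145 ± 3.76 CPM in shARF and 78.8 ± 1.59 CPM in shNT (0.88, adjusted p = 1.56e-06), and Nt5e, the ectoenzyme CD73, at 25.3 ± 0.640 CPM in shARF and 6.86 ± 0.734 CPM in shNT (1.88, adjusted p = 4.06e-06). The 2 lower ones were Igfbp3 (-0.55, adjusted p = 1.47e-04, edgeR) and Foxf2 (-0.39, adjusted p = 0.0405). The classical targets Axl (means of 531 CPM in shARF and 520.5 CPM in shNT) and Myof were not called.

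CCN proteins act beside other matricellular proteins, whose 10 genes had 4 higher, 5 lower and 1 not called, against 28.8% higher and 27.7% lower over all genes. The median log2 fold change of these 10 genes was -0.45. Tnc (tenascin C) was at 1254 ± 22.9 CPM in shARF and 644 ± 9.92 CPM in shNT (log2 fold change 0.96, adjusted p = 2.91e-07, edgeR), and Smoc2 at 144 ± 8.63 CPM in shARF and 21.8 ± 1.35 CPM in shNT (2.73). Thbs2 (thrombospondin 2) was lower, at 560 ± 4.17 CPM in shARF and 991 ± 12.3 CPM in shNT (-0.82). Spp1 (-1.36) and Postn (-1.21) were lower too, as were the scarce Smoc1 (-1.94) and Tnxb (-1.04). Among 9 genes for receptors that bind CCN proteins, 4 were higher, 2 lower and 3 not called, beside the same shares of all genes; scaled by library sizes alone, 2 were higher and 5 lower. Itga5, a fibronectin receptor subunit, rose to 719 ± 15.5 CPM in shARF, against 298 ± 1.09 CPM in shNT (1.27, adjusted p = 1.54e-07). The lipoprotein receptor genes Lrp1 (-0.29) and Lrp6 (-0.18) were lower.

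**Figure D5:**
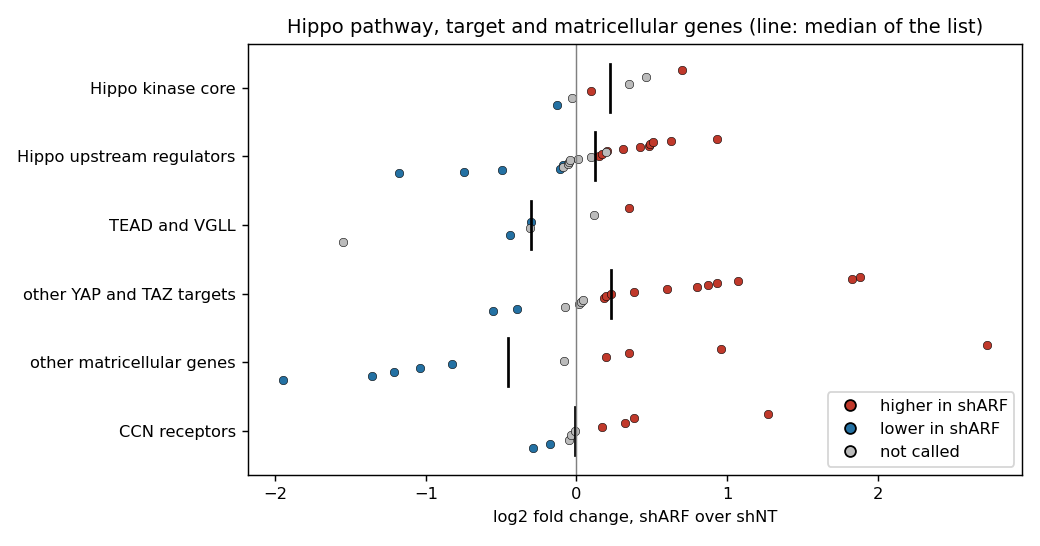
Log2 fold change of shARF over shNT (x axis) for each tested gene of 6 lists (rows), coloured by its call in edgeR, with the median of each list (line). Of the other YAP and TAZ targets 11 of 17 are higher, while the TEAD and VGLL list has a median of -0.30.

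CCN genes are also read in cartilage, so markers of other cell types were set beside them. Chondrocyte markers were lower in shARF, with 4 of 5 called lower (27.7% over all genes) and Col9a1 at 0 in all libraries; their summed level was 87.8 to 92.3 CPM in shARF and 275 to 285 CPM in shNT. Smooth muscle markers had 4 of 5 lower, beside the same 27.7% of all genes. Their sums were 1336 to 1420 CPM in shARF and 1409 to 1461 CPM in shNT, which overlap. The 4 mesothelial markers summed to 83.8 to 85.6 CPM in shARF and 82.4 to 85.7 CPM in shNT. These close sums hide opposite changes: 3 were higher in shARF (28.8% over all genes) and Msln lower (log2 fold change -0.63). Upk3b had 548, 510 and 548 counts in shARF, against 0, 2 and 0 in shNT. Wt1 had 427, 438 and 407 counts in shARF, against 0, 3 and 10 in shNT. Lrrn4 had 377, 382 and 429 counts in shARF, against 0 in each shNT library. Of 5 epithelial markers tested, 2 were higher, 1 lower and 2 not called, against 28.8% higher and 27.7% lower over all genes. The lower one, Krt18, had 10, 10 and 0 counts in shARF, against 642, 594 and 497 in shNT. The part of these markers in the values of the 10 genes was not tested.

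The members lie on 7 chromosomes. Genes within 5 Mb of each member, 23 to 119 tested genes, had median log2 fold changes between -0.02 (around Wisp2) and 0.31 (around Ankrd1). The value for Wisp1 was 0.06 over 23 genes, and for Ctgf 0.23 over 50 genes. By root mean square difference of centred log2 CPM over the 6 libraries, among 11052 genes that averaged 5 CPM or more, Cyr61 was most like Phgdh (0.0158) and Mif (0.0166), Wisp1 most like Glce (0.0458) and Dtx4 (0.048), and Wisp2 most like Ctc1 (0.0191) and Galt (0.0216). Ctgf lay nearest to the processed pseudogenes Gm12366 (0.0311) and Gm12191 (0.0325), and Nov to Setd5 (0.0425) and Lbr (0.0468). Yap1 was most like Tmx2 (0.0115) and Parp10 (0.0163), Wwtr1 most like Ftsj3 (0.00867) and Slc7a6 (0.0126), and Lats2 most like Dolpp1 (0.0482) and Gemin2 (0.0658). Nearest to Amotl2 were the processed pseudogene Gm9892 (0.0166) and Stx7 (0.0179), and nearest to Ankrd1 were Inip (0.013) and Rin1 (0.0144). Amotl2 and Ankrd1 were the nearest pair among the members, at 0.0258, with 21 other genes nearer to Amotl2. With 2 groups of 3, this measure mostly reads the size of the difference between groups.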

How the data were processed

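Total RNA of 3 shARF and 3 shNT libraries was depleted of ribosomal RNA and made into stranded libraries, per the labels' protocols. The authors deposited whole-number counts per gene. The counting tool, annotation release and strand setting were not given in the sources used here; counting without strand would mix reads of overlapping genes. The submitters' processing notes name StringTie 1.3.2, HISAT2 2.1.0, DESeq2 1.34.0, Picard 2.13.2, Trim Galore 0.4.1, SAMtools 0.1.19 and build GRCm38. shARF columns, whose index numbers differ from the titles, were matched on group and replicate; 6 columns that match no sample were not used. Symbols and exon lengths came from the GENCODE annotation of GRCm38, which held 54723 of the 54752 IDs when versions were ignored.

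The main test was edgeR 4.0.16 (R 4.3.3; glmQLFit, glmQLFTest) with TMM scaling, a minimum count of 10 and minimum total of 15, group as the sole term, two-sided, Benjamini-Hochberg over 17128 genes and a threshold of 0.05. CPM per kb divides by the union of exons. No pair of libraries was the same within sampling noise: the chi-square per gene was 12.7 to 17 within groups and 123 to 130 between them. The steps were tested on simulated counts in which 200 genes were changed, far fewer than were called here. That test therefore does not check the scaling where so many genes differ.

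Members and lists were chosen with earlier results of these data known. Named genes were the members, Cdkn2a, the 3 genes with the smallest p of each list, and the 2 genes nearest in pattern to each member; others are examples chosen after their values were seen. Alternatives were DESeq2 1.42.0, limma-voom (limma 3.58.1), other scalings and filters, a replicate block and each library left out in turn.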

Additional observations from a re-analysis of the deposited data

How the results depend on the processing

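Of 141 recomputed values of the 10 genes, 135 kept their direction and their side of the threshold, and none turned round; the 6 exceptions were all of Lats2. With library sizes alone its log2 fold change of 0.37 had an adjusted p of 0.0643, and with 1 library left out it ranged from 0.35 to 0.63. Library sizes alone moved the median of all genes by -0.09. Under that scaling the summed CCN level was 496 CPM per kb in shARF and 363 in shNT. The same scaling gave 8 upstream regulators lower, 4 other targets lower, 1 kinase core gene higher, and 2 CCN receptor genes higher and 5 lower. The kinase core had 1 gene higher under upper quartile scaling and with no filter on low counts, where the other targets had 1 lower. Leaving out 1 library gave 1 to 2 kinase core genes higher, 1 to 2 TEAD and VGLL genes higher, 2 to 3 of them lower and 1 to 3 other targets lower. The replicate numbers did not pair the libraries (correlations of same-numbered deviations -0.0904, -0.0211 and 0.00647), and no library was most like its own number in the other group. With the replicate block, 9 members were higher and 1 lower, and the kinase core had 1 gene higher. Over all genes that block gave 4604 higher and 4309 lower. The cause of these shifts was not tested. At a threshold of 0.01, 8 members were higher and 1 lower, and the share of all genes at that threshold was not computed. Depth did not limit these genes: the member with the fewest counts, Ankrd1, held at least 1362 counts in each library.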
